A study of Mus musculus with 24 samples.

Results

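Nearly all mitochondrial proteins are made in the cytosol and must be carried across 1 or both mitochondrial membranes. A set of 37 mouse genes for that route was followed here in the liver. The genes were taken from a named list of the outer and inner membrane translocases, the import motor, the sorting machinery, the processing peptidase and the matrix chaperones, by the roles of their products. All 37 were among the 21755 genes of the p16-3MR table. In the wild-type table, 25 of the 37 could be read, because 9 lower-case letters are missing from its 12643 gene labels and the labels of the other 12 fit more than 1 mouse gene.

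Each library came from the liver of 1 mouse, and there were 3 mice in each of 8 groups. The p16-3MR mice carry a transgene in which p16 regulatory sequence drives a viral thymidine kinase, so that ganciclovir (GCV) is turned into a toxic product in cells with active p16. Both sexes of these mice were given GCV or vehicle (VEH, water of pH 11) into the peritoneum on 5 days of each month from an age of 16 to 18 months. Wild-type females and males, which lack the transgene, received the same 2 treatments from 6 months of age for 3 months. The labels give a GCV dose of 150 mg/kg, which is not the dose in the study's methods. Genotype, age and batch cannot be told apart, since all p16-3MR libraries belong to batch 1 and all wild-type libraries to batch 2, and levels were therefore compared only within a table.

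Precursor proteins with an amino-terminal presequence are bound by receptors of the translocase of the outer membrane (TOM) and pass through its pore. Presequence proteins then cross the inner membrane through the TIM23 complex and are pulled inward by a motor built around the matrix Hsp70, whereas carrier proteins are led through the intermembrane space by small TIM chaperones to the TIM22 complex. In the matrix the presequence is cut off by a peptidase, and the Hsp60 and Hsp10 chaperonin helps many proteins to fold. Hepatocytes are rich in mitochondria, and the chaperonin and the matrix Hsp70 are well known targets of the mitochondrial stress response.

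Libraries held 5005760 to 7160172 counts in p16-3MR mice and 3084517 to 5667904 in wild-type mice. Reads came from the 3′ ends of transcripts, and levels are given as CPM, counts relative to the size of the library, scaled by the trimmed mean of M values (TMM), so that a value is comparable between livers but not between genes. The p16-3MR livers varied far more than the wild-type livers, with a biological coefficient of variation of 55.8% against 16.6%. GCV-treated female 33 stood apart: 64.0% of its counts came from mitochondrially encoded genes, against 12.3 to 22.4% in the other 11 p16-3MR livers, and its TMM factor was 0.259 against 0.850 to 1.80. It held 1497 counts on the 37 genes, where the other 11 held 9338 to 14045, and 6 of the genes had fewer than 10 counts there. The hepatocyte markers were present in each p16-3MR liver, with 6 of 6 detected. Cdkn2a, which encodes p16, had at most 7 counts in any p16-3MR liver, too few to compare the groups.

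The first comparison asked whether GCV changed the import genes in p16-3MR females. None of the 37 genes passed an adjusted p-value of 0.05 in edgeR's quasi-likelihood test, and 0% of all 21755 genes did. Several genes of the outer membrane receptors and of the small TIM group nevertheless had higher values in each GCV-treated female than in any VEH-treated female. At an unadjusted p-value under 0.05, 7 of the 37 genes (18.9%) were higher and 0 were lower, beside 5.05% of all genes higher and 2.32% lower. The values of the 2 treatments did not overlap for 14 of the 37 genes (37.8%), all higher with GCV. Of all genes, 5.91% were higher without overlap and 7.35% were lower. Among the 12409 genes with a mean of at least 10 counts, 8.82% were higher and 9.48% lower without overlap. At an unadjusted p under 0.05 by edgeR the shares of these 12409 were 6.04% and 3%. The median log2 fold change was 0.42 over the 37 genes and 0.00 over all genes, and 30 genes lay above 0. Without GCV-treated female 31 the median was 0.13 and 22 genes lay above 0, the lowest values with 1 liver left out. Since RNA was taken from whole liver, fewer cells of a type and less RNA per cell cannot be told apart.

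**Figure D1:**
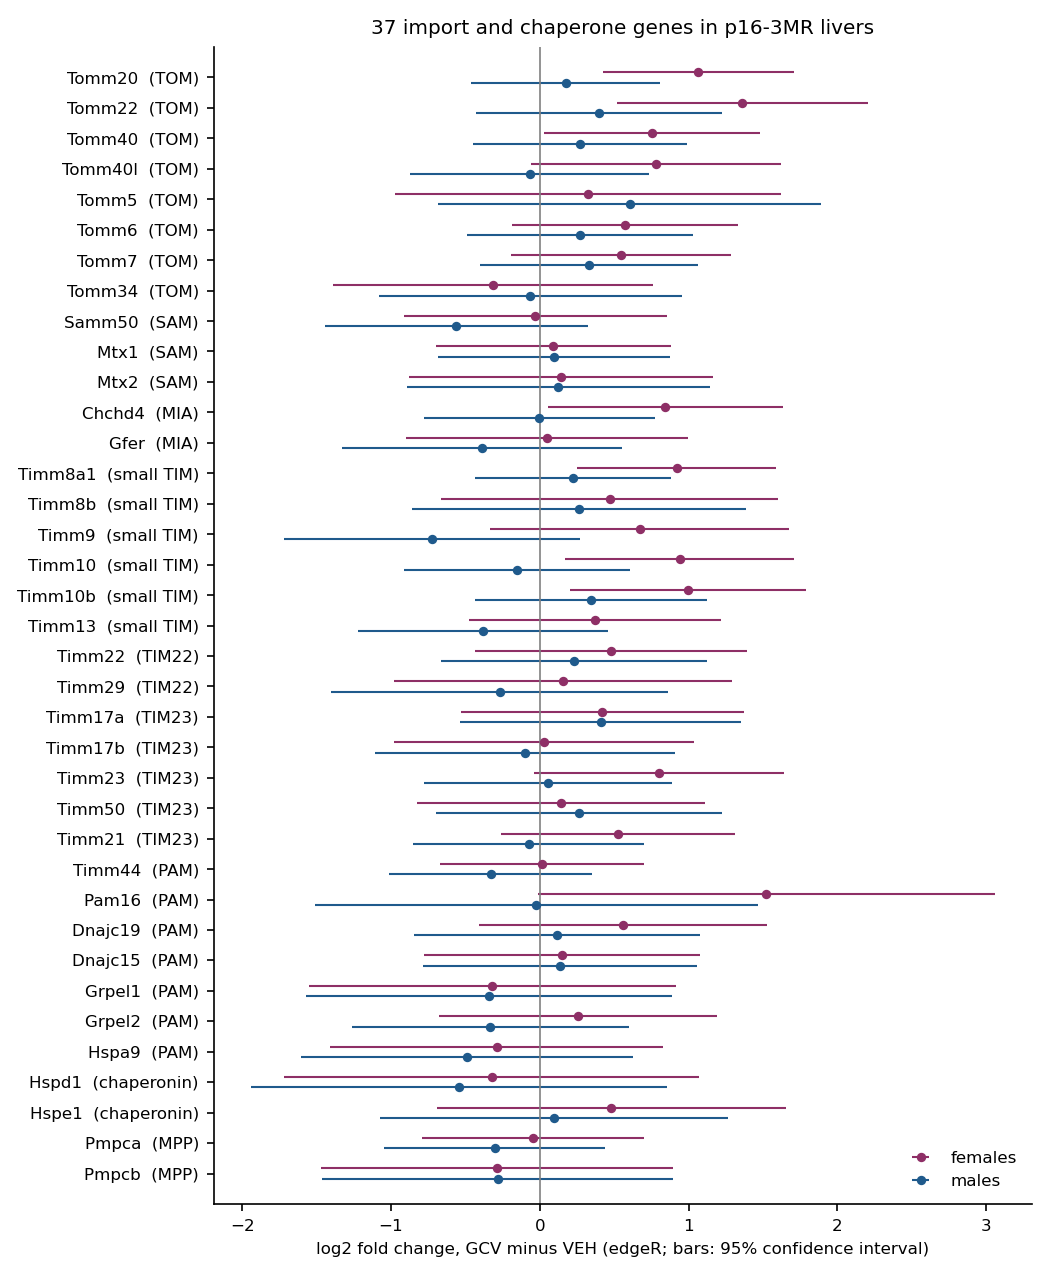
Log2 fold changes, GCV minus VEH, of the 37 genes in p16-3MR females and males, grouped by complex; points are edgeR estimates from 3 against 3 livers and bars are 95% confidence intervals. In females 30 points lie above 0 and 7 intervals exclude 0, all on the higher side, and in males 18 points lie above 0 and no interval excludes 0.

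Tomm20 is the receptor for presequences on the mitochondrial surface. Its level was 83.5, 108 and 75.1 CPM in GCV-treated females 31, 33 and 35 and 40.5, 39.9 and 46.7 CPM in VEH-treated females 27, 28 and 29. The lowest GCV value was thus well above the highest VEH value. The log2 fold change was 1.07 (SE 0.30, 95% confidence interval 0.43 to 1.71), with an unadjusted p of 0.0031 and an adjusted p of 0.65 by edgeR, rank 86 among all genes. DESeq2, the tool used in the study, gave a log2 fold change of 1.08 and an adjusted p of 0.0053, the only call among the 37 genes by either tool in this comparison, where DESeq2 called 86 genes of the whole table. Across the alternatives the adjusted p of Tomm20 ran from 0.0053 to 0.88, and its log2 fold change was 0.84 without female 33.

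Tomm22 is the central receptor and organiser of the TOM complex. It stood at 43.8, 88.8 and 34.9 CPM in GCV-treated females and at 19.3, 18.5 and 26.7 CPM in VEH-treated females. The groups were separate, but the mean of the GCV group leaned on female 33. The log2 fold change of Tomm22 was 1.36 (SE 0.39, unadjusted p 0.0039, adjusted p 0.65 by edgeR) and 0.81 without female 33. DESeq2 gave an adjusted p of 0.088. Tomm40, the pore itself, had 17.2, 20.9 and 15.1 CPM with GCV and 13.1, 6.95 and 11.1 CPM with VEH, again without overlap.

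The rest of the TOM group was less even. Tomm40l, a paralog of the pore, as well as Tomm6 and Tomm7, small subunits, were also higher in each GCV-treated female than in any VEH-treated female, so that 6 of the 8 TOM genes did not overlap and 3 had an unadjusted p under 0.05, beside the 5.91% and 5.05% of all genes that were higher by these measures. Tomm5, another small subunit, fell outside this pattern through 1 liver: it had 17.5 and 11.1 CPM in females 31 and 35 but a single count, 0.772 CPM, in female 33. Tomm34, a cytosolic co-chaperone, was the only TOM gene with a negative log2 fold change, -0.32. Tomm40l shares 4691 bases with Nr1i3 on the opposite strand, and the strand setting of the quantification is not given in the sources used here.

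**Figure D2:**
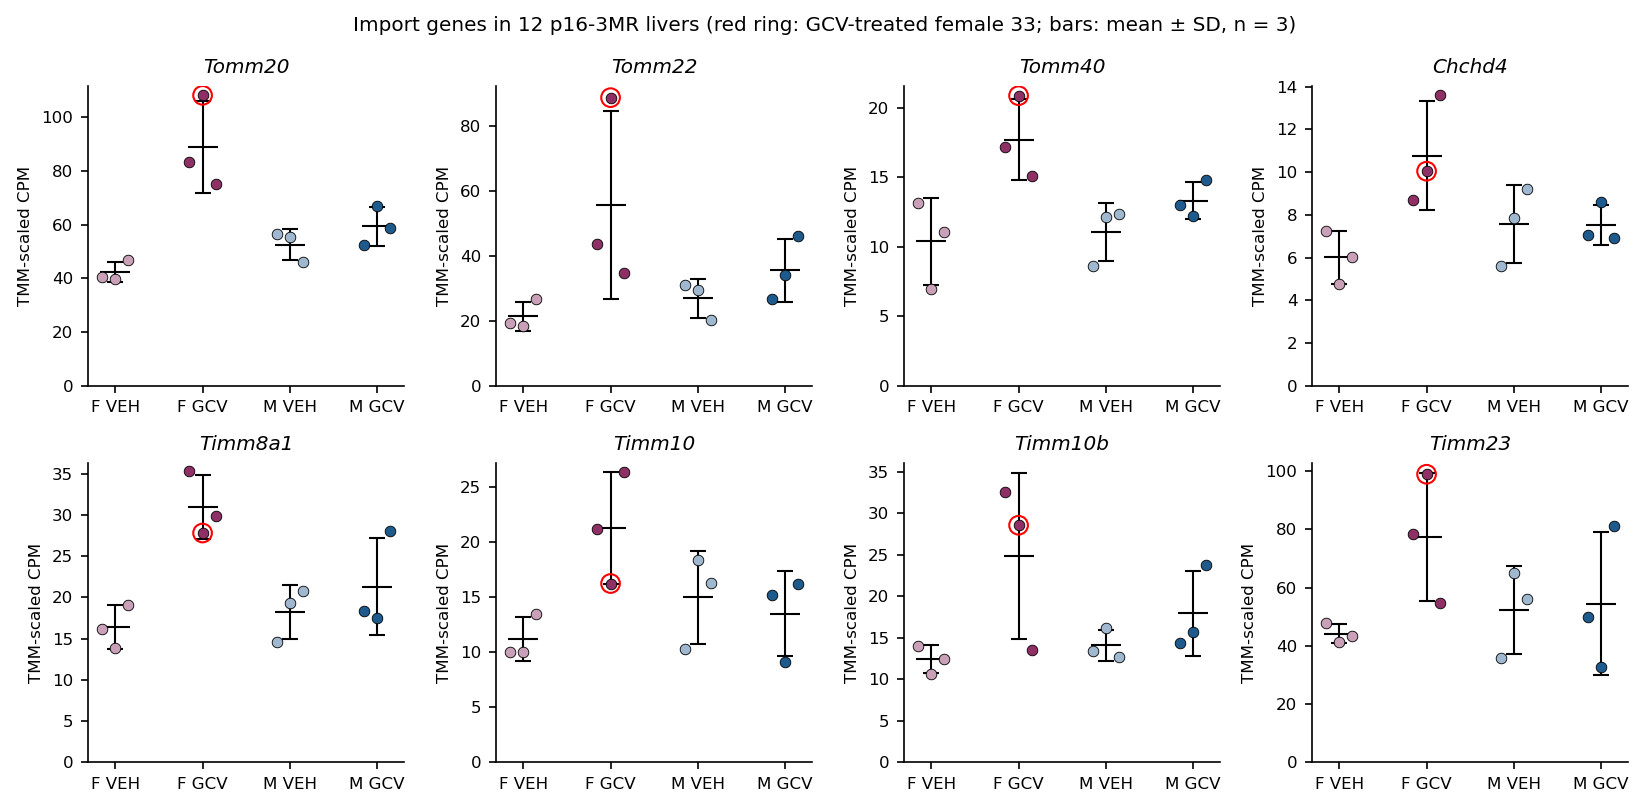
TMM-scaled CPM of 8 import genes in the 12 p16-3MR livers; each point is a liver, the bars are mean ± SD (n = 3), and a red ring marks GCV-treated female 33. Tomm20, Tomm22, Tomm40, Chchd4, Timm8a1, Timm10 and Timm23 are higher in each GCV-treated female than in each VEH-treated female, and Timm10b overlaps through female 35.

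The small TIM chaperones form rings that shield hydrophobic carrier proteins between the membranes. All 6 genes had log2 fold changes above 0 in p16-3MR females, with a median of 0.80, and 3 had an unadjusted p under 0.05, beside 5.05% of all genes higher. Timm8a1 was at 35.3, 27.8 and 29.9 CPM with GCV and at 16.2, 13.9 and 19.1 CPM with VEH. A log2 fold change of 0.92 (SE 0.31) had an unadjusted p of 0.010 and an adjusted p of 0.65 by edgeR. Timm10, the partner of Timm9 in the ring, was at 21.2, 16.2 and 26.3 CPM against 10.1, 9.98 and 13.5 CPM. Timm9 itself also did not overlap, with 11.8, 13.1 and 9.73 CPM against 7.91, 7.09 and 6.54 CPM, but its unadjusted p did not reach 0.05. Timm10b, which docks the rings on the carrier translocase, had 32.6 and 28.6 CPM in females 31 and 33 and 13.6 CPM in female 35, inside the VEH range of 10.7 to 14.1 CPM. Timm8b varied most in this group, from 3.09 CPM in female 33 to 24.9 CPM in female 31.

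Of the pair that folds cysteine-rich proteins in the intermembrane space, the oxidoreductase gene Chchd4 was higher without overlap, at 8.68, 10.04 and 13.6 CPM against 7.24, 4.77 and 6.04 CPM. Gfer, which encodes the sulfhydryl oxidase that recharges it, had 31.2, 10.04 and 20.8 CPM against 23.7, 15.9 and 21.6 CPM, and these ranges overlapped. In the presequence translocase, Timm23, the channel subunit, was at 78.5, 98.9 and 54.8 CPM against 48.0, 41.4 and 43.3 CPM, without overlap, and had a log2 fold change of 0.80 (unadjusted p 0.060, adjusted p 0.67 by edgeR). Timm50, its receptor, had 10.4, 5.41 and 7.71 CPM against 8.85, 6.51 and 6.42 CPM. The latter values overlapped between treatments.

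The motor, chaperonin and peptidase genes together showed no common direction in females. Log2 fold changes were above 0 for 5 of 7 motor, 1 of 2 chaperonin and 0 of 2 peptidase genes. Hspa9, the matrix Hsp70, was at 282, 174 and 583 CPM with GCV and at 476, 373 and 422 CPM with VEH, giving a log2 fold change of -0.29 (SE 0.52, adjusted p 0.91 by edgeR). Hspd1, the matrix Hsp60, was at 251, 59.5 and 506 CPM against 432, 274 and 317 CPM. Its log2 fold change was -0.32 (SE 0.65, adjusted p 0.93 by edgeR) and turned to 0.094 without female 33. Hspe1, the Hsp10 lid of the chaperonin, was at 211, 47.1 and 206 CPM against 125, 86.1 and 123 CPM, with a log2 fold change of 0.48 (SE 0.55, adjusted p 0.82 by edgeR). With 1 liver left out the log2 fold change ran from -0.89 to -0.030 for Hspa9, from -1.13 to 0.094 for Hspd1 and from 0.19 to 0.85 for Hspe1, in each gene with the highest value without female 33. In each of these genes the GCV values spanned the VEH values, and the SD of Hspd1 was 224 CPM with GCV and 81.8 CPM with VEH.

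Timm44, which anchors the motor to the channel, differed little, with 23.9, 27.8 and 33.9 CPM against 29.5, 24.2 and 31.2 CPM. Pam16, a regulator of the motor, did not overlap, at 6.75, 7.72 and 3.52 CPM against 2.14, 1.16 and 2.77 CPM, values that rested on 8 to 35 counts per liver. Dnajc19, a J protein of the motor, also did not overlap, at 60.1, 80.3 and 63.4 against 49.5, 37.6 and 50.8 CPM. Its log2 fold change was 0.56 (unadjusted p 0.23 by edgeR). Pmpcb, the catalytic subunit of the presequence peptidase, ran from 22.4 CPM in female 33 to 118 CPM in female 35 and covered the VEH range of 82.1 to 93.4 CPM. Samm50, the barrel of the sorting machinery, was at 60.7, 19.3 and 69.1 CPM against 56.8, 45.3 and 51.7 CPM.

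Female 33 was the lowest of the 6 p16-3MR females for 18 of the 37 genes and the highest for 11. It was the lowest of the females for Hspa9, Hspd1, Hspe1, Pmpcb and Samm50 but the highest for Tomm20, Tomm22, Tomm40 and Timm23. Without it, 8 genes were higher at an unadjusted p under 0.05, 0 were lower, beside 2.44% of all genes higher and 2.15% lower in the same fit, and the median log2 fold change was 0.50, the highest with 1 liver left out. The count of 7 was more sensitive to the VEH-treated females: it was 2 without female 28, beside 2.9% of all genes, and 4 without female 29, beside 2.76% of all genes.

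**Figure D3:**
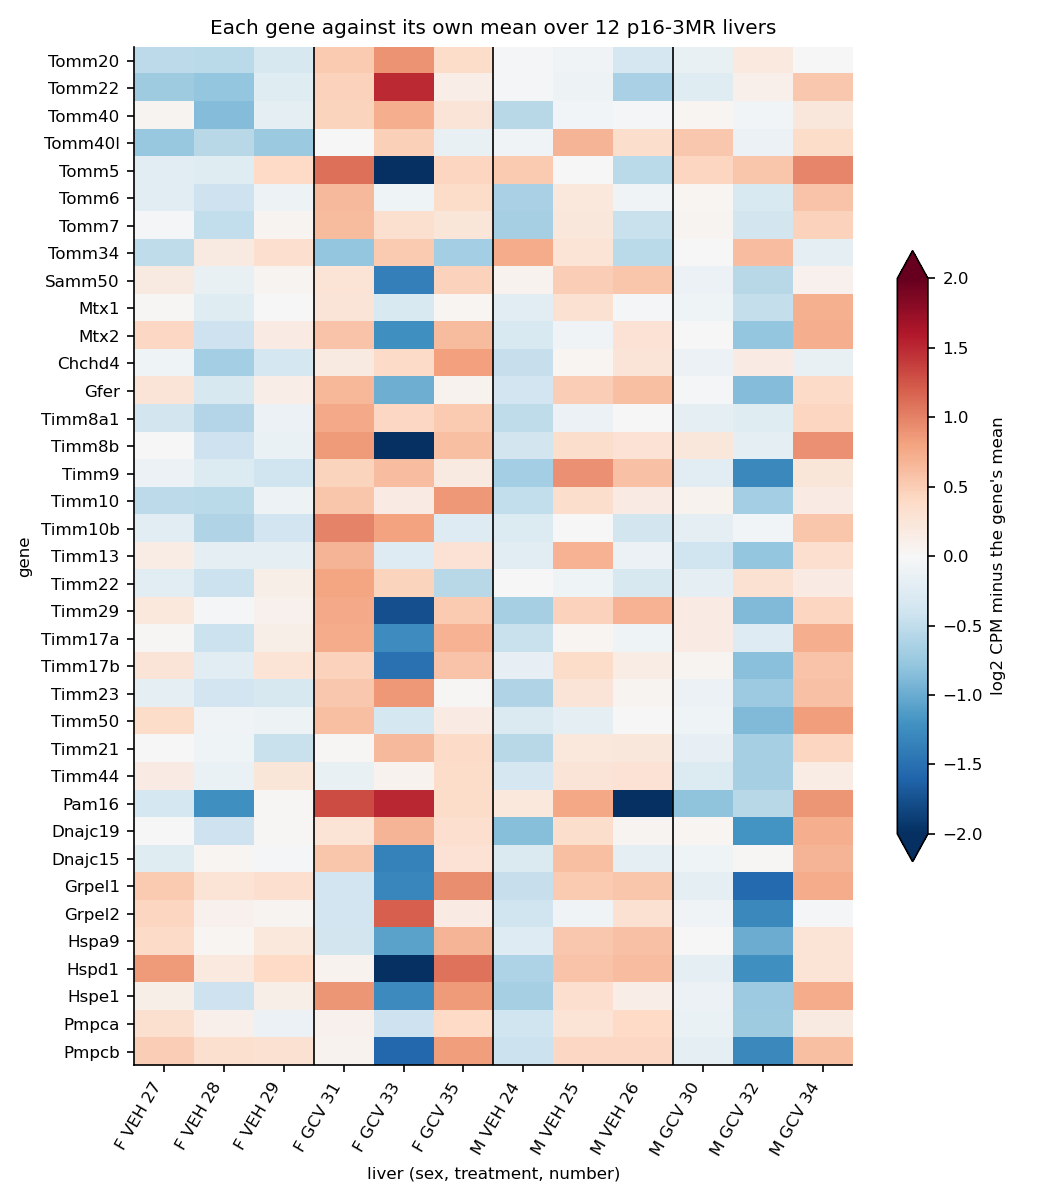
Level of each of the 37 genes in each p16-3MR liver, as log2 of TMM-scaled CPM minus that gene's mean over the 12 livers, with colours capped at 2 in either direction. GCV-treated female 33 and GCV-treated male 32 hold the lowest value of 13 and 12 genes.

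Summed markers of other liver cells were separate between the same groups for stellate cells and cholangiocytes and overlapped for the other cell types. In p16-3MR females the summed level of 6 Kupffer cell markers was 115 to 363 CPM with GCV and 317 to 963 CPM with VEH, and that of 5 stellate cell markers was 148 to 238 against 246 to 307 CPM. The 4 cholangiocyte markers summed to 10.9 to 38.6 against 4.83 to 9.19 CPM, the 5 endothelial markers to 67.8 to 131 against 80.5 to 174 CPM, and the 6 lymphocyte markers to 2.31 to 14.7 against 8.58 to 67.7 CPM. The 6 hepatocyte markers summed to 109815 to 158546 against 90889 to 121777 CPM. All markers of these lists were detected, with Krt7 and Krt19 at 0 in 1 liver each and Nkg7 in 2. The part of these values, and of the share of mitochondrially encoded counts, in the values of the import genes was not tested.

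Promoter windows of 250 bases before and 50 after the start (RefSeq, GRCm38.p6) were at hand for 32 of the 37 genes. They were searched on both strands for 5 motifs. Because Tomm20 and Tomm22 had the lowest unadjusted p in females and Timm9 the lowest in the wild-type sex comparison, the bases before their starts that lie outside annotated exons are shown 5′ to 3′ on the gene's strand, with any match in capitals. The stretches are Tomm20 at chr8:126945922-126946171 (minus strand), Tomm22 at chr15:79670618-79670860 (plus strand) and Timm9 at chr12:71136685-71136847 (minus strand).
Tomm20: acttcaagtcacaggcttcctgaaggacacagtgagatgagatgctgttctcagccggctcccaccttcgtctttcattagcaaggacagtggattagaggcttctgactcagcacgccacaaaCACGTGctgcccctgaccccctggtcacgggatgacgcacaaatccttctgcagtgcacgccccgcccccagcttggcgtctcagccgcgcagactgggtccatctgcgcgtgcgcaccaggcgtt
Tomm22: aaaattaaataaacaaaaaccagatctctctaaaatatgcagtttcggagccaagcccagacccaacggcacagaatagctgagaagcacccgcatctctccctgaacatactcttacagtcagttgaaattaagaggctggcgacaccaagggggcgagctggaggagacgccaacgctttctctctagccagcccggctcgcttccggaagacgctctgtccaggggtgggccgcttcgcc
Timm9: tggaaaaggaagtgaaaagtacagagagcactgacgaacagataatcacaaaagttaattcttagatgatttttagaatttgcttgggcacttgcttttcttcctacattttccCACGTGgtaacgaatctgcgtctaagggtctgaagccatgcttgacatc
The capitals mark CACGTG, the E-box. It was found in 5 of the 32 windows (15.6%), those of Tomm20, Timm8a1, Timm9, Timm10 and Hspd1, and in 7.24% of the first windows of 27025 gene symbols. Tomm22 held none of the 5 motifs. The window of Timm9 also held a second E-box and a heat shock element outside the stretch shown. The ETS motif CCGGAAGT was found in 6 of the 32 (18.8%), Mtx2, Timm10, Timm10b, Timm29, Timm23 and Pmpcb, and in 4.0% of all first windows. Matches of NRF1 (GCGCATGC) were in Timm13 and Grpel1, 6.25% beside 2.8%, and of the amino acid response element TGATGNAA in none, beside 4.06%. No matches of different motifs overlapped in these windows.

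Hspd1 and Hspe1 lie head to head on chromosome 1, and their gene models share 112 bases at their 5′ ends. The heat shock element GAANNTTC was found in the windows of Hspe1 and Timm9, 6.25% of the 32 beside 7.95% of all. Its match before Hspe1, at chr1:55088054-55088081 on the plus strand, is shown with the element in capitals, since 1 of the 2 windows of Hspd1 holds the same bases on the other strand.
Hspe1: gtccgttctaGAACCTTCcggaaggccc
These matches are descriptions of letters in a window, and no binding was measured.

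In p16-3MR males the import genes had no common direction. None of the 37 genes was called by edgeR or by DESeq2, and 0% of all genes were called by edgeR. At an unadjusted p under 0.05, 0 genes were higher and 0 lower in edgeR, beside 1.1% and 0.814% of all genes. Of the 37 log2 fold changes, 18 were above 0 and 19 below, the median was 0.00, and no gene was free of overlap between treatments, beside 3.57% of all genes higher and 2.83% lower without overlap. This split rested on single livers: 11 were above 0 without GCV-treated male 34 and 26 without GCV-treated male 32, and the median ran from -0.32 to 0.13 with 1 liver left out. The lowest unadjusted p was that of Timm9, with 7.33, 3.51 and 10.2 CPM in GCV-treated males 30, 32 and 34 and 5.37, 16.3 and 13.0 CPM in VEH-treated males 24, 25 and 26. Its log2 fold change of -0.72 (SE 0.46) had an unadjusted p of 0.14 and an adjusted p of 1.00 by edgeR. Samm50 followed, with 46.2, 34.2 and 53.0 against 52.3, 70.7 and 73.6 CPM and a log2 fold change of -0.56 (SE 0.41, unadjusted p 0.19). Tomm22 was at 26.9, 34.1 and 46.1 against 31.2, 29.6 and 20.2 CPM, a log2 fold change of 0.40 (SE 0.38, unadjusted p 0.31). With 1 liver left out Timm9 ran from -1.09, without GCV-treated male 34, to -0.39, without VEH-treated male 25, and Tomm22 from 0.18, without GCV-treated male 34, to 0.53.

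The chaperone genes overlapped between treatments in males as well. Hspa9 was at 364, 182 and 438 CPM with GCV and at 305, 529 and 548 CPM with VEH, a log2 fold change of -0.49 (SE 0.52, adjusted p 1.00 by edgeR). Hspd1 was at 209, 102 and 290 against 156, 355 and 366 CPM, with a log2 fold change of -0.54 (SE 0.65, adjusted p 1.00 by edgeR). For Hspe1 the values were 105, 69.0 and 192 against 72.1, 145 and 125 CPM, and the log2 fold change was 0.10 (SE 0.54, adjusted p 1.00 by edgeR). With 1 liver left out Hspa9 ran from -0.75 to -0.23, Hspd1 from -0.91 to -0.25 and Hspe1 from -0.39 to 0.35, each lowest without GCV-treated male 34 and highest without GCV-treated male 32. In both groups the lowest values came from 1 liver, GCV-treated male 32 and VEH-treated male 24, which had the highest TMM factors, 1.80 and 1.64. Male 32 was the lowest of all 12 livers for 12 of the 37 genes. Tomm20, in contrast, varied little in males, with 52.4, 66.8 and 58.8 CPM against 56.4, 55.5 and 46.0 CPM.

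The GCV response of females was then set against that of males in 1 model. No gene of the 37 was called by edgeR or DESeq2, and 0% of all genes were called by edgeR. Timm10 was the only import gene with an unadjusted p under 0.05 in edgeR: the female response exceeded the male one by 1.09 on the log2 scale (SE 0.50, 95% confidence interval 0.01 to 2.18, unadjusted p 0.048, adjusted p 0.98). This 1 of 37 (2.7%) stood beside 1.91% of all genes higher and 1.87% lower. For Tomm20 the difference was 0.89 (SE 0.42, unadjusted p 0.051) and for Timm9 1.39 (SE 0.66, unadjusted p 0.053). Of the 37 differences, 32 were above 0, with a median of 0.38 beside -0.04 over all genes, and the same VEH and GCV livers enter all of them. With 1 liver left out the median ran from 0.10 (without GCV-treated male 32) to 0.68 (without GCV-treated male 34), the number above 0 from 23 to 36, and the number with an unadjusted p under 0.05 in edgeR from 0 to 3. The higher values seen in females are therefore not shown to differ from the male response.

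Between VEH-treated p16-3MR females and males, edgeR called 0.12% of all genes and none of the 37, and DESeq2 called none of the 37. Of the 37, 1 was lower at an unadjusted p under 0.05 and 0 were higher, beside 1.49% and 1.25% of all genes. The number lower was 0 without female 27, female 29 or male 25, 2 without male 24 and up to 3 under the other alternatives. The gene was Tomm40l, at 3.62, 4.196 and 3.65 CPM in females and 5.83, 9.82 and 7.81 CPM in males, without overlap. Its log2 fold change, females minus males, was -1.03 (SE 0.38, unadjusted p 0.018, adjusted p 1.00 by edgeR), and the overlap with Nr1i3 applies here too. Timm9 was at 7.91, 7.09 and 6.54 CPM in females and 5.37, 16.3 and 13.0 CPM in males, a log2 fold change of -0.68 (SE 0.46, unadjusted p 0.16). The third lowest unadjusted p was that of Timm10, with a log2 fold change of -0.42 (SE 0.35, unadjusted p 0.26). Timm9 ran from -1.01 without male 24 to -0.35 without male 25, and Timm10 from -0.62 to -0.24 without the same livers. All 6 small TIM genes had log2 fold changes below 0, but over both treatments together those of Timm9 and Timm10 were 0.020 and 0.13.

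Wild-type mice, which lack the transgene, gave the response to GCV without the kinase. In wild-type females none of the 25 readable genes was called by edgeR or DESeq2, while edgeR called 0.00791% of all labels. At an unadjusted p under 0.05, 0 of the 25 were higher and 0 lower in edgeR, beside 2.25% and 2.32% of all labels. The number higher ran from 0 to 2 and the number lower from 0 to 1 with 1 liver left out. The median log2 fold change was 0.01. Dnajc19, a J protein of the motor, was at 121, 145 and 122 CPM in GCV-treated females 4, 5 and 6 and at 106, 115 and 110 CPM in VEH-treated females 4, 5 and 6, without overlap. This gave a log2 fold change of 0.22 (SE 0.11, unadjusted p 0.051, adjusted p 1.00 by edgeR). Hspd1 was at 520, 501 and 461 against 462, 435 and 391 CPM, 0.20 on the log2 scale (SE 0.10, unadjusted p 0.055), and Timm8a1 at 30.05, 42.0 and 32.5 against 43.0, 42.03 and 41.4 CPM, -0.28 on the log2 scale (SE 0.15, unadjusted p 0.072). Dnajc19 ran from 0.14 to 0.27 and Timm8a1 from -0.43 to -0.19 with 1 liver left out.

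Tomm22, the only TOM gene readable in the wild-type table, was at 48.8, 49.2 and 43.6 CPM with GCV and at 42.8, 36.9 and 48.2 CPM with VEH in these females. The 2 ranges overlapped, and the log2 fold change was 0.14 (95% confidence interval -0.15 to 0.44). Timm23 had 90.4, 93.5 and 94.8 against 87.5, 77.2 and 102 CPM, and Chchd4 13.3, 16.7 and 16.0 against 14.4, 8.41 and 11.8 CPM. Neither gene was free of overlap. Tomm20, Tomm40, Timm10 and Timm10b were not analysed here in wild-type mice, since their labels fit several genes.

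In wild-type males, 0 of the 25 genes were called by edgeR or DESeq2 and 0% of all labels by edgeR. At an unadjusted p under 0.05, 1 was higher and 2 were lower, beside 2.65% and 2.41% of all labels. The number higher ran from 0 to 1 and the number lower from 1 to 3 with 1 liver left out. Timm44 was at 55.7, 66.7 and 61.3 CPM in GCV-treated males 1, 2 and 3 and at 36.2, 51.8 and 52.4 CPM in VEH-treated males 1, 2 and 3, a log2 fold change of 0.38 (SE 0.14, unadjusted p 0.012, adjusted p 0.89 by edgeR). Gfer was lower, at 51.9, 52.3 and 56.2 against 65.5, 67.8 and 66.4 CPM, with the replicates of each group close together and a log2 fold change of -0.32 (SE 0.12, unadjusted p 0.013, adjusted p 0.89). The values of Grpel2, a nucleotide exchange factor of the matrix Hsp70, were 18.6, 24.8 and 14.04 against 19.7, 27.98 and 37.7 CPM and overlapped, at a log2 fold change of -0.56 (SE 0.22, unadjusted p 0.019, adjusted p 0.89). With 1 liver left out Grpel2 ran from -0.82 to -0.30, the latter without VEH-treated male 3, and Timm44 from 0.24, without VEH-treated male 1, to 0.47. None of the 25 GCV responses was called as different between wild-type females and males, where edgeR called 0.00791% of all labels. The lowest unadjusted p, 0.047, was that of Timm50, whose response was 0.56 lower in females on the log2 scale (log2 difference -0.56, SE 0.27, adjusted p 0.98 by edgeR), 1 of 25 (4%) beside 2.5% of all labels lower. Gfer (0.28, SE 0.16, unadjusted p 0.10) and Timm29 (-0.46, SE 0.30, unadjusted p 0.14) came next. Timm50 ran from -0.71 to -0.37 with 1 liver left out.

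In wild-type mice 1 of the 25 genes, Timm9, passed the adjusted threshold for a sex difference, a share near the 3.82% of all labels. Such a share does not set the import genes apart. Timm9 was at 16.7, 12.4 and 17.4 CPM in VEH-treated females and at 27.1, 28.6 and 31.5 CPM in VEH-treated males, and the groups were widely separate. Its log2 fold change, females minus males, was -0.91 (SE 0.20, 95% confidence interval -1.33 to -0.49) with an adjusted p of 0.0094 by edgeR, 1 of 25 genes called beside 3.82% of all labels. GCV-treated wild-type mice, whose group means did not enter this comparison although they were part of the same fit, had 12.7, 16.97 and 14.6 CPM in females and 19.5, 28.1 and 34.2 CPM in males, again without overlap. Over both treatments the log2 fold change was -0.90 with an adjusted p of 0.00019. The adjusted p rose to 0.064 without VEH-treated female 5 and to 0.054 without VEH-treated male 3, and ran from 0.00019 to 0.064 over the alternatives. Timm9 shares 49 bases with Tomm20l on the opposite strand.

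The other genes of the carrier route went both ways in wild-type mice, and none passed the adjusted threshold. Timm8a1, of the small TIM group, and Timm22, the carrier pore, had log2 fold changes of 0.076 and 0.11. Timm8b was at 79.4, 68.6 and 82.8 CPM in VEH-treated females and 101, 97.1 and 92.9 CPM in VEH-treated males, a log2 fold change of -0.33 (SE 0.13, adjusted p 0.21 by edgeR). Timm13, its partner in a second small TIM ring, was at 134, 133 and 149 against 152, 181 and 162 CPM (log2 fold change -0.25, SE 0.12, adjusted p 0.31 by edgeR). With Gfer, Tomm22 and Timm23, 6 of the 25 genes (24%) were lower in females at an unadjusted p under 0.05 and 0 were higher, beside 7.25% and 7.97% of all labels. The number lower was 2 without VEH-treated female 5 or VEH-treated male 3 and 4 without VEH-treated female 4 or VEH-treated male 2. Without overlap, 6 were lower and 1 was higher, Timm44, beside 8.69% and 9.82%. Among the 8613 labels with a mean of at least 10 counts, 11.3% were lower and 11% higher without overlap. At an unadjusted p under 0.05 by edgeR the shares of these 8613 were 9.72% lower and 9.82% higher. TMM factors also differed by sex in this table, from 1.11 to 1.14 in females and from 0.835 to 0.975 in males. Of the hepatocyte markers 2 of 6 could be read there, and they summed to 14519 to 14880 CPM in VEH-treated females and 18051 to 18920 CPM in VEH-treated males. The 3 readable stellate cell markers summed to 251 to 297 against 210 to 241 CPM, and the 2 readable lymphocyte markers to 2.06 to 4.65 against 0.798 to 1.16 CPM. The sums of the other marker lists overlapped. The part of these differences in the values of Timm9 and its neighbours was not tested.

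**Figure D4:**
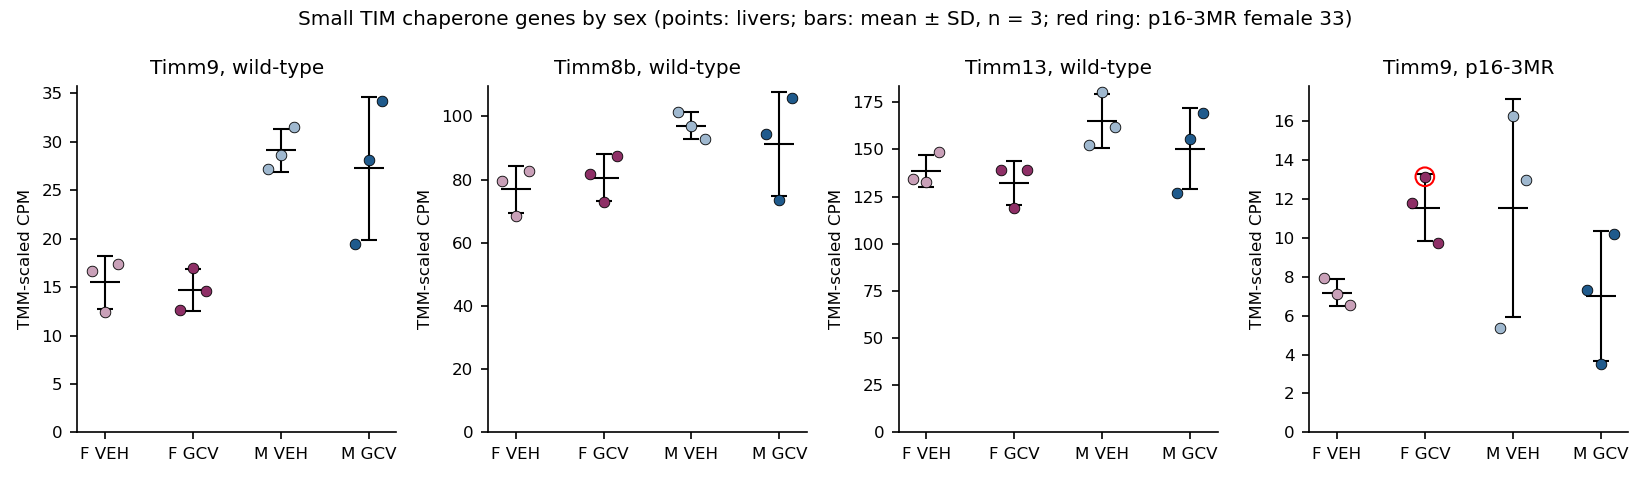
TMM-scaled CPM of 3 small TIM genes in wild-type livers and of Timm9 in p16-3MR livers; points are livers, bars are mean ± SD (n = 3) and the red ring marks p16-3MR female 33. In wild-type livers Timm9 lies between 12.4 and 17.4 CPM in all 6 females and between 19.5 and 34.2 CPM in all 6 males, while in p16-3MR livers the sexes overlap.

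Genes whose products work as partners were compared liver by liver. For each pair, log2 CPM with the group mean taken off was correlated over the 12 livers of a table, with exact permutation within groups over 1296 arrangements and adjustment over the 8 pairs of the p16-3MR table or the 4 readable pairs of the wild-type table. In p16-3MR livers Hspa9 and Hspd1, the matrix Hsp70 and Hsp60, had a Pearson r of 0.95 (permutation p 0.00077, the smallest possible; adjusted p 0.0062) and a Spearman rho of 0.97 (permutation p 0.00077). Without the 2 livers farthest from the median, females 33 and 35, r was 0.98. The subunits of the presequence peptidase, Pmpca and Pmpcb, had an r of 0.91 (permutation p 0.0015, adjusted p 0.0062) and a rho of 0.87 (permutation p 0.0023), and r stayed at 0.91 without males 24 and 32.

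Hspd1 and Hspe1, which share a start region, had an r of 0.94 (permutation p 0.0054, adjusted p 0.011) and a rho of 0.90 (permutation p 0.0069). Without female 33 and male 32 r was 0.74 and its adjusted permutation p 0.078, with fewer arrangements to permute. Timm8b and Timm13 had an r of 0.73 (permutation p 0.0039, adjusted p 0.010) and a rho of 0.83 (permutation p 0.00077), with r at 0.85 and an adjusted permutation p of 0.078 without females 31 and 33. Without female 33 alone both pairs were still called, with adjusted permutation p of 0.032 and 0.048. With group means kept, Timm8b and Timm13 had an r of 0.53 and an adjusted permutation p of 0.13, so that call was lost. Female 33 changed the call of 1 pair, Timm17a and Timm23. These genes, which form the presequence channel, had an r of 0.065 (permutation p 0.90, adjusted p 0.90) and a rho of 0.22 (permutation p 0.54) with it, and an r of 0.87 (adjusted permutation p 0.012) without it. Female 33, male 32 and male 24 had the most extreme TMM factors of the 12 livers, and the part of this in the correlations was not tested. No other gene pairs were correlated, so whether partners go together more closely than other genes was not tested.

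For the other pairs no call was made, and r depended on the livers used. Timm9 and Timm10 had an r of 0.68 (permutation p 0.11, adjusted p 0.18) and a rho of 0.49 (permutation p 0.23), and r was -0.46 without males 24 and 32, 0.82 without female 33 and 0.73 with group means kept. Tomm22 and Tomm40 had an r of 0.34 (permutation p 0.28, adjusted p 0.37) and a rho of 0.30 (permutation p 0.39), and r was -0.020 without female 33 and male 34 and 0.74 with group means kept. Chchd4 and Gfer had an r of 0.18 (permutation p 0.64, adjusted p 0.73) and a rho of 0.13 (permutation p 0.72), and r turned to -0.24 without female 35 and male 24. In wild-type livers none of the 4 pairs was called. Hspa9 and Hspd1 had an r of -0.30 there (permutation p 0.42, adjusted p 0.72) and a rho of -0.19 (permutation p 0.61), over a much narrower range of levels: Hspd1 ran from 391 to 520 CPM and Hspa9 from 269 to 328 CPM. The r was 0.28 for Timm8b and Timm13 (permutation p 0.67), 0.17 for Timm17a and Timm23 (permutation p 0.72) and 0.17 for Chchd4 and Gfer (permutation p 0.72), all with an adjusted p of 0.72, and the rho was 0.33, 0.24 and 0.10 (permutation p 0.45, 0.50 and 0.84). Without the 2 farthest livers r was 0.67 for Timm8b and Timm13 and 0.28 for Timm17a and Timm23. With group means kept r was 0.59 and 0.61 for these pairs, and neither pair was called in either way.

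**Figure D5:**
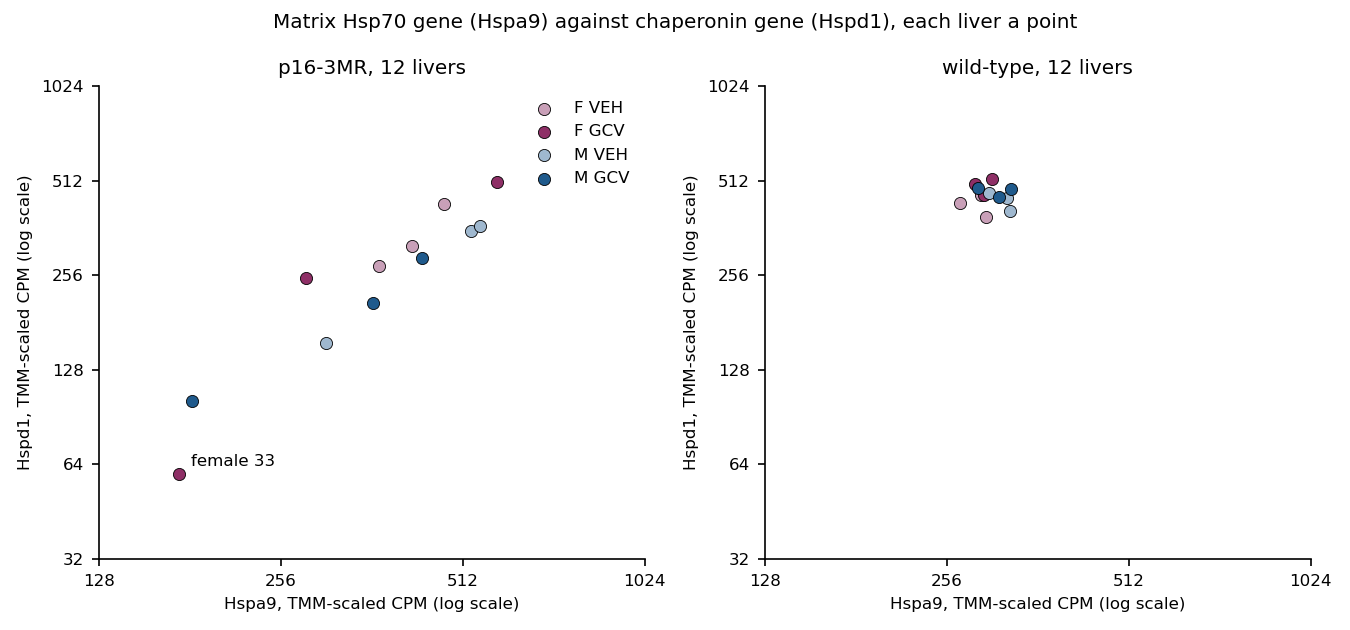
TMM-scaled CPM of Hspd1 against Hspa9 on log scales, each point a liver coloured by sex and treatment, with p16-3MR livers on the left and wild-type livers on the right. In p16-3MR livers the 2 genes go up together from female 33 (174 and 59.5 CPM) to female 35 (583 and 506 CPM), and the wild-type livers form 1 compact group.

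Across the 12 p16-3MR livers the highest value of a gene was at the median 3.32 times its lowest, and from 2.03 times for Timm44 to 22.7 times for Tomm5, whose lowest value was the single count in female 33. Across the 12 wild-type livers the same fold was at the median 1.54, from 1.22 for Hspa9 to 3.16 for Pam16. The first median covers 37 genes and the second only the 25 readable ones. The 2 tables differ in genotype, age and batch, which cannot be told apart as sources of the contrast in spread.

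Genes around the import route were counted from 3 further lists. Of 15 other import genes in p16-3MR females, 1 (6.67%) was higher at an unadjusted p under 0.05 and 0 were lower, a share near the 5.05% and 2.32% of all genes, and the median log2 fold change was 0.01. The higher one was Romo1, a small inner membrane protein, at 31.8, 40.9 and 23.1 CPM with GCV and 12.7, 13.6 and 16.5 CPM with VEH. Of 14 genes of mitochondrial protein quality control, 2 (14.3%) were higher and 1 (7.14%) was lower, beside the same shares of all genes. These were the subunits of the matrix protease ClpXP, which went opposite ways, and Htra2, an intermembrane space protease. Clpp, the peptidase, was at 33.5, 58.7 and 23.3 against 15.3, 16.9 and 16.99 CPM, a log2 fold change of 1.21 (SE 0.47, adjusted p 0.67 by edgeR). Clpx, its unfoldase, was at 198, 27.03 and 72.5 against 324, 231 and 313 CPM, a log2 fold change of -1.54 (SE 0.69, adjusted p 0.67 by edgeR).

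Of 9 regulators of mitochondrial genes, 2 (22.2%) were higher and 1 (11.1%) was lower in p16-3MR females at an unadjusted p under 0.05, beside 5.05% and 2.32% of all genes. Atf4, a transcription factor of the integrated stress response, was at 96.2, 275 and 43.6 CPM with GCV and 38.3, 35.02 and 38.5 CPM with VEH, a log2 fold change of 1.88 (SE 0.54, adjusted p 0.65 by edgeR). The mean of its GCV group leaned on female 33, the liver at 275 CPM. Ddit3, which acts in the same response, was at 20.8, 12.4 and 8.89 against 5.09, 4.196 and 4.15 CPM. Gabpa, an ETS factor that acts on many mitochondrial genes, was lower, at 19.9, 9.27 and 35.4 against 52.1, 43.7 and 39.0 CPM (log2 fold change -1.03, SE 0.43, adjusted p 0.67 by edgeR). None of these 38 genes was called by edgeR in p16-3MR females.

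In the female minus male response of p16-3MR livers, 2 of the 9 regulators (22.2%) were higher at an unadjusted p under 0.05 in edgeR, beside 1.91% of all genes. These were Ddit3, by 1.85 on the log2 scale (SE 0.69, unadjusted p 0.019), and Atf4, by 1.63 (SE 0.75, unadjusted p 0.047), both with an adjusted p of 0.98. The Atf4 difference leaned on female 33, at 275 CPM beside 96.2 and 43.6 CPM in females 31 and 35. In p16-3MR males, none of the 38 genes had an unadjusted p under 0.05 in edgeR, beside 1.1% of all genes higher and 0.814% lower. In wild-type mice 24 of the 38 could be read. In females 1 was higher, beside 2.25% of all labels. It was Ppargc1a, a coactivator of mitochondrial genes, at 28.2, 25.6 and 25.7 CPM with GCV against 18.7, 22.8 and 16.2 CPM with VEH. In males 1 was lower, beside 2.41% of all labels. It was Mtch1, an outer membrane insertase, at 36.5, 39.2 and 43.6 against 55.6, 50.7 and 52.0 CPM. In the wild-type response of females minus males, Mtch1 was higher and Dnajc11, an outer membrane J protein, was lower at an unadjusted p under 0.05, beside 1.95% and 2.5% of all labels. In VEH-treated wild-type livers, females minus males, Dnaja3 (-0.42 on the log2 scale) and Atf4 (-0.41) were lower and Ppargc1a (0.46) was higher, beside 7.25% and 7.97%, with adjusted p of 0.20, 0.22 and 0.28 by edgeR. Neither Ppargc1a in females nor Mtch1 in males was called after adjustment over all labels in edgeR, with adjusted p of 1.00 and 0.89.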

How the data were processed

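Liver RNA of 24 mice was sequenced with Smart-3SEQ from 15 ng of RNA. Per the submitters' processing notes and the study's methods, the authors checked reads with FastQC 0.11.9, trimmed them with Trim Galore 0.6.10 and quantified them with Salmon 1.10.3 (mm10), summed transcripts to genes and left out genes below 3 reads. Each deposited value is the authors' estimated count (expected count) for a gene, given as a whole number. Of the 12643 wild-type labels, 10496 fit 1 symbol, 2067 several and 80 none. Only labels with 1 symbol were named. Symbols and positions came from GENCODE (GRCm38).

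Each table was fitted on its own with edgeR 4.0.16 in R 4.3.3: TMM, 1 mean per group, quasi-likelihood test, two-sided, Benjamini-Hochberg adjustment over all genes, calls under 0.05. Log2 CPM used a prior count of 2. The smallest level set apart from 0, 3 counts, was 0.293 to 2.32 CPM in p16-3MR and 0.516 to 0.943 CPM in wild-type livers, for counting error only. The fits were also run on simulated data with known changes, and the share of these that was recovered is not given here. The alternatives were DESeq2 1.42.0, its size factors in edgeR, filterByExpr, removal of mitochondrially encoded genes, only the 6 livers compared, each liver left out, a replicate block, both treatments pooled for sex, and, chosen after seeing the data, 3 livers left out together. Members and lists were chosen with earlier results of these data known. Tests were described by rule for genes past the threshold or, where none was, the 3 with the lowest p, for Hspa9, Hspd1 and Hspe1 in the p16-3MR GCV comparisons, and for up to 3 genes of each further list. Timm23 in p16-3MR females, Tomm22 in wild-type females and the genes beside Timm9 in the wild-type sex comparison were outside the rule. These, the livers described and genes named only for not overlapping or for few counts were chosen after their values were seen.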

Additional observations from a re-analysis of the deposited data

How the results depend on the processing

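Of the 107 comparisons of the count of import genes called with an alternative, 104 gave the same count. The exceptions were DESeq2 in p16-3MR females, with 1 gene (Tomm20, adjusted p 0.0053), and the wild-type sex comparison, where leaving out 1 liver gave 0 to 1 genes and 0 without VEH-treated female 5 or male 3 (Timm9, log2 fold change -0.78 and -0.85). The median log2 fold change of the genes with 1 liver left out ran from -0.050 to 0.059 in wild-type females and from -0.11 to 0.030 in wild-type males. The number higher at an unadjusted p under 0.05 by edgeR in p16-3MR females ran from 2 to 8 with 1 liver left out. The share of all genes ran from 2.44% to 7.7% in these fits. The number was 10, with no share of all genes given here, without GCV-treated female 33, GCV-treated male 32 and VEH-treated male 24, a choice made after seeing the data. That choice also turned the log2 fold change of Hspd1 in p16-3MR females to 0.11, and with 1 liver left out it ran from -1.13 to 0.094, the latter without female 33. In p16-3MR males Hspe1 ran from -0.39 without GCV-treated male 34 to 0.35 without GCV-treated male 32, and was -0.14 without VEH-treated male 24. Over both treatments the sex difference of Timm9 in p16-3MR livers was 0.020 and that of Timm10 0.13. Without the 2 farthest livers, r was 0.74 for Hspd1 and Hspe1, -0.46 for Timm9 and Timm10, 0.85 for Timm8b and Timm13, 0.91 for Timm17a and Timm23, -0.24 for Chchd4 and Gfer, -0.020 for Tomm22 and Tomm40 and, in wild-type livers, -0.17 for Chchd4 and Gfer. Without female 33, r of Timm17a and Timm23 was 0.87, and with group means kept, r of Timm8b and Timm13 was 0.53. The cause of these shifts was not tested.

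Same-numbered wild-type livers of the 2 treatments had deviations that correlated at -0.06 to 0.00 in females and -0.07 to 0.28 in males, so the numbers were not taken to pair the mice. With the replicate block 0 import genes were called in each wild-type GCV comparison, and the median log2 fold change was 0.01 in females, -0.09 in males and 0.07 for their difference, while 106, 68 and 79 labels were called in all, against 1, 0 and 1 without it. Depth limits Tomm5, Timm8b and Timm29 most in female 33, where they had 1, 4 and 5 counts.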
